A study of Mus musculus with 12 samples.

Results

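MERVL and MT2 elements are mouse endogenous retroviruses of the ERVL family, and their RNA was followed here through an immunoprecipitation of the L1 protein ORF1p from Mael-/- testes. Members were all repeat loci of the ERVL family whose repeat name starts with MERVL or MT2. The deposited locus tables list 7561 such loci among 781935 repeat loci, and the table of repeat names holds 8 such names among 1528. The 8 names were MERVL-int with 1060 loci, MERVL_2A-int with 858, MT2_Mm with 622, MT2A with 1376, MT2B with 1421, MT2B1 with 1212, MT2B2 with 571 and MT2C_Mm with 441. The loci carry numbers but no genome positions in the tables, so their places in the genome and their sequences are not given here.

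All 12 libraries came from testes of C57BL/6 Mael-/- mice aged 3 months, with 3 biological replicates in each of 4 groups. TOTAL was the testis extract with 10 mM EDTA, which takes ribosomes apart. INPUT was the pool of fractions 5 to 8 of a 10 to 50% sucrose gradient loaded with that extract. IP was the material that an anti-ORF1p antibody brought down from INPUT, and BO (Beads Only) was the material that beads without antibody held back from the same pool. No other genotype was sequenced in this series, so the groups differ in the step of the purification and not in Mael, and the labels do not say how many animals went into a replicate.

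An ERVL element carries an internal region with retroviral gag and pol genes between a pair of long terminal repeats (LTRs), which hold the promoter and the polyadenylation signal. The names that end in -int are internal regions, and the MT2 names are LTRs. MT2_Mm is the LTR that flanks MERVL, the youngest of these elements in the mouse, and the other MT2 names are related and mostly older LTRs. MERVL is best known for its burst of transcription in the 2-cell embryo, where MT2_Mm also serves as a promoter for nearby genes, and in most later cells it is silenced through histone and DNA methylation. ORF1p is the RNA-binding protein of the L1 retrotransposon, which is unrelated to ERVL, and MAEL is a germline protein of the piRNA pathway that represses retrotransposons.

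Between 1384904 and 7282171 reads per library fell on repeat names, with the fewest in an IP library and the most in a TOTAL library. The members took 13028 to 30875 reads per library. In percent of all reads on repeat names the members held 1.06 to 1.10 in IP, 0.751 to 0.765 in INPUT, 0.287 to 0.420 in TOTAL and 0.465 to 0.939 in BO. The lowest BO value belonged to replicate 3. Without the 7SL and rRNA names the shares were 1.11 to 1.18% in IP, 0.967 to 1.11% in INPUT, 0.697 to 0.739% in TOTAL and 0.911 to 1.02% in BO, so that IP and INPUT then overlapped. Mael itself had group means of 0.650 in TOTAL, 0.502 in BO and 0 in INPUT and IP. In TOTAL, markers of Leydig cells (Cyp17a1 29894), Sertoli cells (Clu 66084) and spermatocytes (Sycp1 9433) were all present, while the 6 spermatid markers had a median of 26.1, with 230.9 for Spaca1 and 11.7 to 39.3 for Prm1, Prm2, Tnp1, Tnp2 and Acrv1. In such bulk material fewer cells of a type and less RNA per cell cannot be told apart.

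MERVL-int, the internal region of MERVL, was the member name that stood most clearly apart in IP. Its normalized count, the deposited read count divided by a size factor of the library, was 3942, 3353 and 3538 in the IP libraries. It was 2097, 2330.0 and 2368.5 in BO, 2306, 2174 and 2239 in INPUT, and 1843, 1878 and 1831 in TOTAL. Every IP library lay above every library of the other groups. The log2 fold change in limma's test over 1180 repeat names was 0.67 ± 0.07 (SE) for IP vs BO, with a Benjamini-Hochberg adjusted p of 3.16e-05. The limma value was 0.69 ± 0.07 for IP vs INPUT (adjusted p = 5.28e-05) and 0.96 ± 0.07 for IP vs TOTAL (adjusted p = 4.27e-06). Behind these values stood 1477 to 3627 reads per library. By fold change MERVL-int ranked 111th of 1180 names for IP vs BO, 95th for IP vs INPUT and 43rd for IP vs TOTAL, so that 9.32%, 7.97% and 3.56% of all names stood above it.

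**Figure D1:**
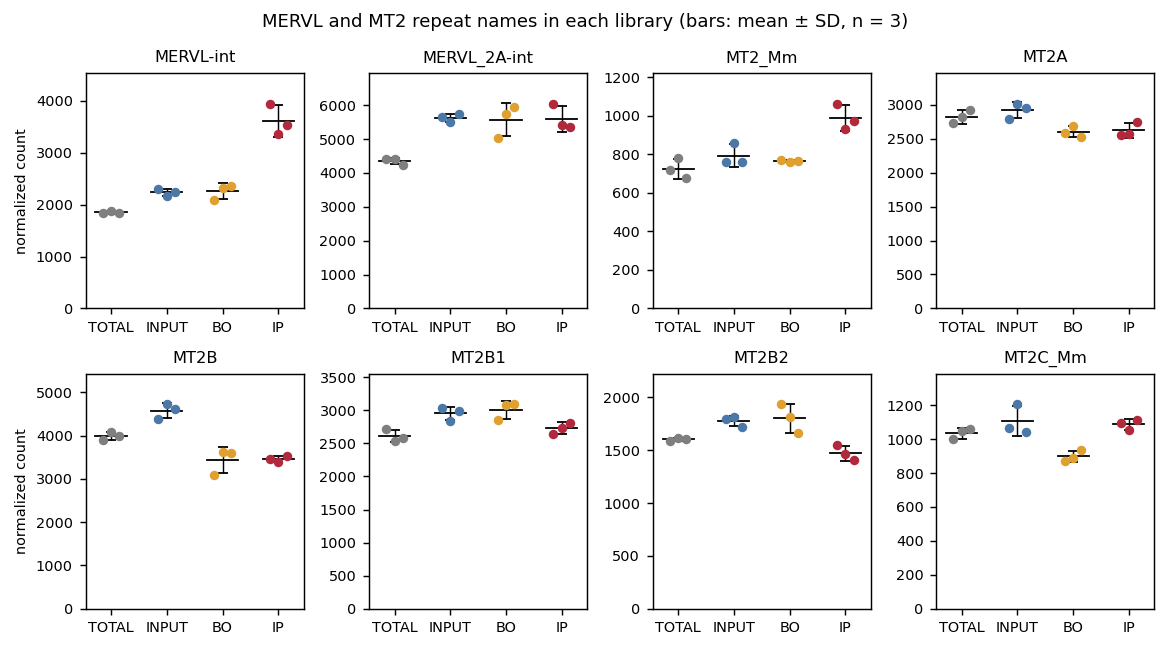
Normalized count (deposited values, y axis from 0) of each of the 8 repeat names in the 3 libraries of TOTAL, INPUT, BO and IP. Points are libraries, horizontal bars the group mean and error bars the SD (n = 3). The 3 IP libraries of MERVL-int sit between 3353 and 3942, above all 9 other libraries, and those of MT2_Mm between 928 and 1060.5, also above all others.

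MERVL_2A-int, the second internal region, did not follow MERVL-int. Its normalized count was 6038, 5406 and 5361 in IP, 5046, 5733 and 5954 in BO, and 5658, 5496 and 5728 in INPUT, so these groups overlapped. In TOTAL it was 4423, 4398 and 4241, below all other libraries. The log2 fold change was 0.01 ± 0.07 (SE) for IP vs BO and -0.01 ± 0.07 for IP vs INPUT. Against TOTAL it was 0.36 for IP (limma, adjusted p = 0.00481) and 0.37 for INPUT (adjusted p = 0.0307), so that INPUT, taken before the antibody was added, stood above TOTAL by about as much as IP did. The INPUT vs TOTAL call was lost, with limma adjusted p-values of 0.0532 to 0.148, when IP replicate 2, TOTAL replicate 2 or 3, or any of the 3 INPUT replicates was left out.

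MT2_Mm, the LTR of MERVL, was higher in IP than in each other group in the table of names, by a smaller amount than MERVL-int. Its normalized count was 1060.5, 928 and 972 in IP and 768.5, 761 and 765 in BO. In INPUT it was 760.0, 859.6 and 757, and in TOTAL 718, 778 and 677. No IP library overlapped with another group. The log2 fold change was 0.37 ± 0.08 (SE) for IP vs BO, 0.32 ± 0.08 for IP vs INPUT and 0.45 ± 0.08 for IP vs TOTAL, with limma adjusted p-values of 0.00434, 0.0134 and 0.00243. For IP vs INPUT the adjusted p became 0.0510 without IP replicate 1 and 0.0549 without INPUT replicate 3, with log2 fold changes of 0.26 and 0.29. With counts scaled to library totals it was 0.0675 for IP vs BO and 0.0646 for IP vs INPUT.

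MT2B2, another LTR name, was lower in IP than in BO and INPUT on the deposited scale, while its log2 fold change turned to 0.20 and 0.27 with counts scaled to library totals. Its normalized count was 1546, 1459.6 and 1405 in IP, 1935, 1811 and 1663 in BO, 1794, 1816 and 1721 in INPUT, and 1583, 1619.95 and 1602 in TOTAL. The IP libraries lay below every BO, INPUT and TOTAL library. The log2 fold change was -0.29 ± 0.07 (SE, adjusted p = 0.00625) for IP vs BO, -0.27 ± 0.07 (adjusted p = 0.0122) for IP vs INPUT and -0.12 ± 0.07 (adjusted p = 0.232) for IP vs TOTAL in limma. edgeR on the recovered reads gave -0.16 (adjusted p = 0.152) and -0.22 (adjusted p = 0.0602) for the first 2 comparisons, and without INPUT replicate 2 limma's adjusted p for IP vs INPUT was 0.0521.

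MT2B, also an LTR name, separated INPUT from the material on beads of either kind. Its normalized count was 3452, 3381 and 3532 in IP and 3084, 3628 and 3592 in BO, which overlap. In INPUT it was 4385, 4723 and 4611, above all other libraries, and in TOTAL 3901, 4078 and 3998. The log2 fold change was -0.40 for IP vs INPUT (limma, adjusted p = 0.00139) and -0.42 for BO vs INPUT (adjusted p = 0.00118), but 0.01 for IP vs BO. Scaled to library totals the IP vs INPUT value turned to 0.14, and the BO vs INPUT value was -0.37 with an adjusted p of 0.756. Against TOTAL the limma value of IP was -0.21 (adjusted p = 0.0527), and it passed at 0.0212 without BO replicate 1.

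MT2C_Mm was higher in IP than in BO, and BO was also below INPUT. Its normalized count was 1096, 1051 and 1112 in IP, 873, 887 and 933 in BO, 1068, 1206 and 1042 in INPUT, and 999, 1049 and 1057 in TOTAL. The IP libraries overlapped with INPUT and TOTAL, and the BO libraries lay below all others. The log2 fold change was 0.27 (limma, adjusted p = 0.0109) for IP vs BO, -0.02 for IP vs INPUT and 0.07 for IP vs TOTAL. For BO vs INPUT limma gave -0.30 (adjusted p = 0.00844), and without INPUT replicate 2 it was -0.23 with an adjusted p of 0.0502. Scaled to library totals, neither call was kept, with 0.77 (limma, adjusted p = 0.108) for IP vs BO and -0.25 (adjusted p = 0.853) for BO vs INPUT.

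MT2A and MT2B1 passed limma's test in none of the 5 comparisons on the deposited scale. The MT2A count was 2553, 2562 and 2743 in IP, 2587, 2690.4 and 2524 in BO, 2785, 3009.8 and 2953 in INPUT, and 2724, 2813 and 2923 in TOTAL. In BO vs INPUT, MT2A had -0.16 (limma, adjusted p = 0.0676), and it passed as lower at 0.0352 with a minimum mean of 100, 0.0484 with a replicate block, 0.0256 with median-ratio scaling, 0.0137 in edgeR and 0.0162 in DESeq2. In IP vs INPUT its limma adjusted p was 0.0858, and 0.0481 with a minimum mean of 100. The MT2B1 count was 2646, 2739 and 2815 in IP, 2853, 3073 and 3092 in BO, 3031, 2842 and 2983 in INPUT, and 2716, 2529 and 2588 in TOTAL. For both names the differences between IP and the other groups were between -0.15 and 0.07 on the log2 scale. The IP libraries of MT2B1 lay below those of BO and INPUT without overlap, by -0.14 (adjusted p = 0.110) and -0.11 (adjusted p = 0.211) in limma's test.

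**Figure D2:**
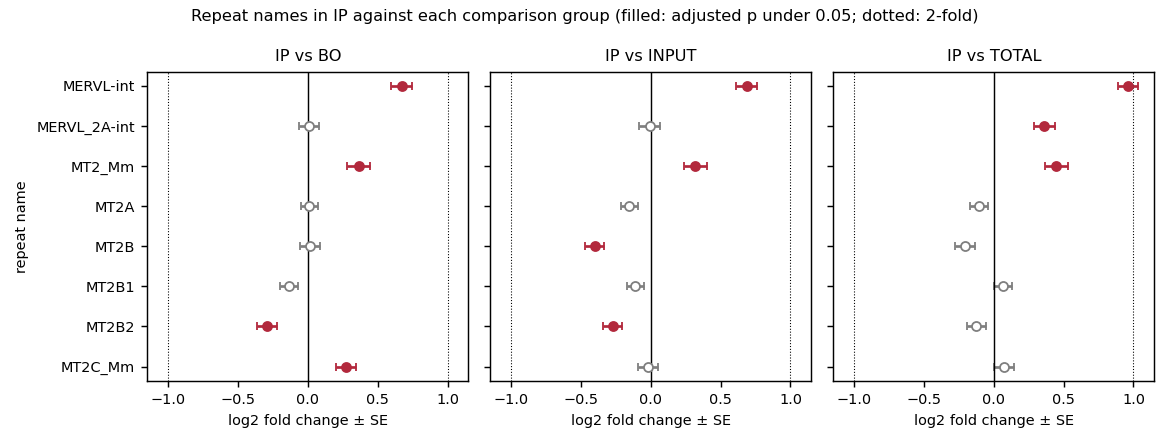
Log2 fold change with its SE (x axis) of the 8 repeat names in limma's test for IP vs BO, IP vs INPUT and IP vs TOTAL on the deposited scale. Filled points have an adjusted p under 0.05 and dotted lines mark 2-fold. MERVL-int and MT2_Mm are to the right of 0 in all 3 panels (0.67, 0.69 and 0.96 for MERVL-int), and MT2B2 at -0.29 and -0.27 in the first 2, values that turn to 0.20 and 0.27 when libraries are scaled to their totals, as does MT2B for IP vs INPUT from -0.40 to 0.14.

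Counted over the 8 names, 3 rose and 1 fell in IP relative to BO with an adjusted p under 0.05, where 11.3% of all 1180 names were higher and 23.2% lower. In IP vs INPUT 2 names were higher and 2 lower, against 11.0% higher and 16.7% lower over all names. In IP vs TOTAL 3 were higher and 0 lower, against 10.2% and 12.5%. edgeR and DESeq2 also had 0 lower names there, where they called 128 and 123 lower over all names. An unadjusted limma p under 0.05 was found for 4 of the 8 names in that comparison, and the share of all names at that threshold is not given. With 8 names, these counts describe the members and were not tested against the other names.

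On the deposited scale no member name was both past 2-fold and past the adjusted p in limma, in any of the 5 comparisons. Over all names that share was 8.90% for IP vs BO, 6.10% for IP vs INPUT, 6.36% for IP vs TOTAL, 0.339% for INPUT vs TOTAL and 5.42% for BO vs INPUT. The number past 2-fold at an unadjusted p under 0.05 was also 0 in each comparison. In IP vs TOTAL, edgeR and DESeq2 on the recovered reads each put 1 name past 2-fold, MERVL-int, with log2 fold changes of 1.01 and 1.02, and limma did so at 1.01 without IP replicate 2. With libraries scaled to their totals limma put 1 name past 2-fold for IP against BO, 1 against INPUT and 8 against TOTAL. It put 8 past 2-fold in INPUT vs TOTAL. The median log2 fold change of all names was then 0.36, 0.47, 1.49 and 1.03 in these comparisons. At an adjusted p under 0.05, 90.7% of all 1180 names were then higher in IP vs TOTAL and 78.2% in INPUT vs TOTAL. The share of all names past 2-fold under this scaling is not given, so the member counts cannot be weighed against it.

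On the deposited upper quartile scale the median log2 fold change of all names was -0.12 for IP vs BO, -0.06 for IP vs INPUT and -0.05 for IP vs TOTAL, and the median of the 8 members was 0.01, -0.07 and 0.07. With each library scaled to its total, the median of all names moved to 0.36, 0.47 and 1.49 and that of the members to 0.51, 0.48 and 1.62. MERVL-int kept its direction and its adjusted p under 0.05 in these 3 comparisons under every alternative run, with values of 0.61 to 1.17 for IP vs BO, 0.62 to 1.23 for IP vs INPUT and 0.90 to 2.51 for IP vs TOTAL. Of the 83 other ERVL names tested, 8 passed as higher and 12 as lower against BO, 7 and 13 against INPUT, and 10 and 9 against TOTAL.

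Ratios within a library do not depend on the scale. The log2 ratio of MERVL-int to MERVL_2A-int was -0.63 ± 0.05 (SD, n = 3) in IP, -1.30 ± 0.03 in BO, -1.33 ± 0.03 in INPUT and -1.23 ± 0.03 in TOTAL. IP did not overlap with any other group, and the two-sided exact permutation test gave p = 0.1 for each comparison, the smallest that 3 against 3 allows (adjusted p = 0.114 over 32 such tests). MERVL-int held 16.7 ± 0.83% (SD, n = 3) of the counts of the 8 names in IP, 11.1 ± 0.22% in BO, 10.2 ± 0.38% in INPUT and 9.75 ± 0.07% in TOTAL. Both internal regions together held 42.7% in IP, 38.5% in BO, 35.8% in INPUT and 32.7% in TOTAL, so the share of LTR names was smallest in IP. The log2 ratio of MT2_Mm to MERVL-int was -1.87 ± 0.02 in IP against -1.56 ± 0.10 in BO, -1.50 ± 0.14 in INPUT and -1.36 ± 0.08 in TOTAL (exact permutation p = 0.1 each, n = 3), so that MERVL-int gained more in IP than the LTR that flanks it.

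**Figure D3:**
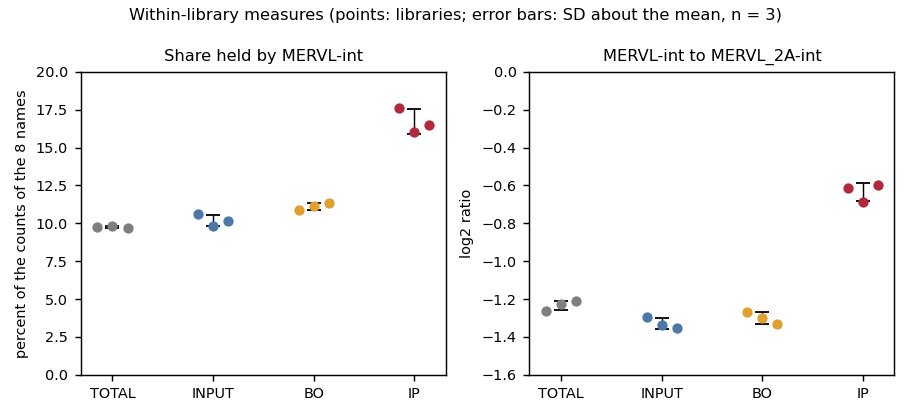
Left, percent of the counts of the 8 names held by MERVL-int in each library (y axis from 0). Right, log2 ratio of MERVL-int to MERVL_2A-int in each library. Points are libraries and error bars the SD about the mean (n = 3). The IP libraries, at 16.1 to 17.7% and -0.69 to -0.60, are apart from all 9 others.

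Beside other retrotransposons, chosen with their values known, the ratios of MERVL-int are given as a description. Its log2 ratio to L1Md_A, a young L1 family, was -4.36 ± 0.33 (SD, n = 3) in IP against -2.71 ± 0.17 in BO, -3.23 ± 0.29 in INPUT and -3.51 ± 0.29 in TOTAL. Its ratio to MMERVK10C-int, an internal region of the ERVK family, was -4.59 ± 0.36 in IP against -2.89 ± 0.38, -3.49 ± 0.10 and -3.56 ± 0.22. Its ratio to the sum of the other ERVL names was -2.58 ± 0.16 in IP against -3.24 ± 0.06, -3.36 ± 0.07 and -3.63 ± 0.02, so it was lower in IP relative to the first 2 names and higher relative to the other ERVL names. None of these sets overlapped between IP and another group.

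Among the groups other than IP, INPUT was tested against TOTAL and BO against INPUT, and BO was not tested against TOTAL. In INPUT vs TOTAL, MERVL_2A-int was the 1 name that was higher at an adjusted p under 0.05 and 0 were lower, where 0.847% of all names were higher and 0.847% lower. MERVL-int had 0.27 (limma, adjusted p = 0.0882) in that comparison, and 4 names had an unadjusted p under 0.05, a threshold for which no share of all names is given. edgeR called 0 names higher and 0 lower there, and DESeq2 1 and 0. Over all names edgeR called 5 and 13, and DESeq2 31 and 41. In BO vs INPUT, 0 names were higher and 2 lower, MT2B and MT2C_Mm, against 17.2% and 11.7% of all names, and MERVL-int had a log2 fold change of 0.01. edgeR and DESeq2 called 0 higher and 3 lower in BO vs INPUT. Over all names edgeR called 166 higher and 179 lower there, and DESeq2 191 and 172.

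Single loci were described from the authors' group means, which come without a spread per library and allow no test here. Each of the 3 tables sets IP against 1 other group and was normalized on its own, so IP has 3 means per locus. The tool that counted reads per locus and its use of strand are not given in the sources used here, and reads that match several copies of a repeat may have been assigned to 1 of them. Most member loci were near 0. Of the 7561 loci, 726 had a mean of 0 in every group, and the mean of both groups reached 10 in 77 loci for IP vs BO, 90 for IP vs INPUT and 89 for IP vs TOTAL. In all, 102 loci reached it in some table and 65 in all 3. The 13 MERVL-int loci that reached 10 in the INPUT table compare with 37 for MERVL_2A-int, 5 to 10 for MT2A, MT2B, MT2B1, MT2B2 and MT2C_Mm, and 0 for MT2_Mm. The highest MT2_Mm locus, MT2_Mm_666, had means of 13.4 in BO and 5.92 in IP of that table, and 4.06 in INPUT and 4.76 in TOTAL.

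A single locus, MERVL-int_449, carried much of the MERVL-int difference. Its mean was 505 in IP against 120.1 in BO, 662 in IP against 206 in INPUT, and 660.3 in IP against 106 in TOTAL, which are log2 ratios of 2.06, 1.68 and 2.63 with a pseudocount of 1. In the sum of all 1060 MERVL-int loci it held 40.1% in IP, 13.6% in BO, 22.2% in INPUT and 14.6% in TOTAL. By comparison the top locus of MMERVK10C-int held 9.41% of its name's IP sum and that of L1Md_A 0.827%. The summed MERVL-int means had log2 ratios of 0.51 for IP vs BO, 0.83 for IP vs INPUT and 1.19 for IP vs TOTAL. Without MERVL-int_449 the ratios were -0.01, 0.46 and 0.68, a step added after the data were seen. On the scale of each table the other MERVL-int loci together thus had no higher sum in IP than in BO, but a higher sum than in INPUT and TOTAL. In the same tables the median log2 ratio of all repeat loci with a mean of at least 10 was -0.90, -0.25 and 0.01. The -0.01 against BO lay above that median of -0.90 and below the median of 0.81 of genes with such means. Of the 1060 MERVL-int loci, 11 reached such a mean in the BO table. A sum over mostly low loci and a median of single loci are unlike measures, so no direction relative to either median is drawn.

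**Figure D4:**
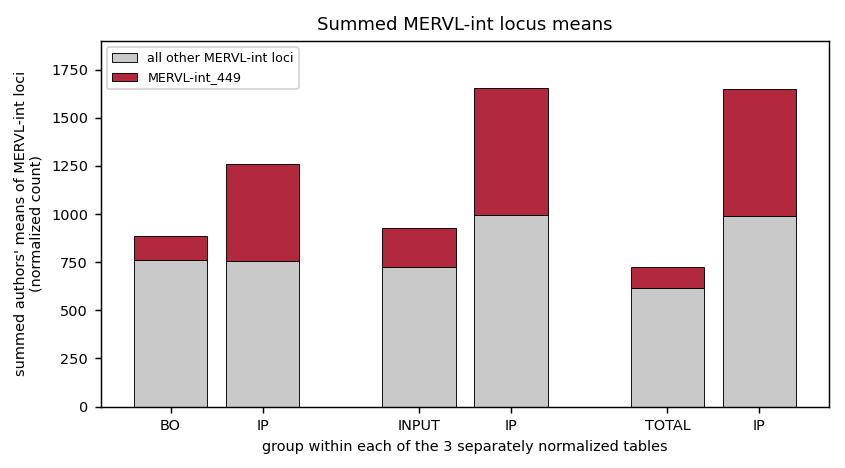
Sum of the authors' group means over the 1060 MERVL-int loci (y axis from 0, normalized count), in pairs for the 3 tables that set IP against BO, INPUT and TOTAL. The red part is MERVL-int_449 and the grey part all other loci. The red part is 40.1% of the IP bar and 13.6% of the BO bar. The grey parts of that pair have a log2 ratio of -0.01 on the scale of their table. The median ratio of single repeat loci with a mean of at least 10 there is -0.90, an unlike measure.

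The next MERVL-int locus, MERVL-int_2569, also had higher means in IP in each table. It had 93.4 in IP against 25.1 in BO, 122 against 52.9 in INPUT and 122 against 43.7 in TOTAL, with log2 ratios of 1.86, 1.19 and 1.46. On the scale of the tables MERVL-int_827 stayed level, with 35.9 against 34.2 in BO, 47.2 against 41.1 in INPUT and 46.8 against 42.3 in TOTAL. Relative to the median repeat locus of the BO table its log2 ratio was 0.97. Among MERVL-int loci with a mean of at least 10, 2 of 11 were past 2-fold higher and 2 lower in IP vs BO, 5 of 13 higher and 0 lower in IP vs INPUT, and 6 of 13 higher and 0 lower in IP vs TOTAL. Over all repeat loci with such means 17.2% were higher and 47.7% lower against BO, 22.1% and 31.2% against INPUT, and 24.1% and 24.3% against TOTAL, so the share of higher MERVL-int loci was near that of all loci against BO on the scale of that table. With ratios centred on its median repeat locus, 7 of the 11 were higher and 0 lower, where 30% and 25.7% of all repeat loci were. Their median log2 ratios were 0.40, 0.71 and 0.75.

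Much of the MERVL_2A-int sum sat in 2 loci with consecutive numbers, which together held 55.5% of it in IP, 56.1% in BO, 49.5% in INPUT and 40.3% in TOTAL. MERVL_2A-int_3654 had a mean of 819.5 in IP against 1051 in BO, 1074 against 846 in INPUT and 1071 against 513 in TOTAL. MERVL_2A-int_3655 had 501 against 519 in BO, 656 against 448 in INPUT and 655 against 284 in TOTAL. Their log2 ratios were -0.36 and -0.05 for IP vs BO, 0.34 and 0.55 for IP vs INPUT, and 1.06 and 1.21 for IP vs TOTAL. On the scale of the BO table they were not higher in IP than in BO, while relative to the median repeat locus of that table, at -0.90, their ratios were 0.54 and 0.85. The first of them held 34.4% of the summed MERVL_2A-int means in IP and 37.5% in BO. The LTR locus MT2B1_6701 showed a like series, with 155 in IP against 184 in BO, 203 against 156 in INPUT and 203 against 95.4 in TOTAL, or -0.24, 0.38 and 1.08 on the log2 scale. The tables do not say whether locus numbers follow genome order or which of these loci lie within transcripts of genes.

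Other MERVL_2A-int loci took their own course. MERVL_2A-int_33 had 90.4 in IP against 28.0 in BO, 119 against 20.2 in INPUT and 118 against 24.4 in TOTAL, with log2 ratios of 1.66, 2.50 and 2.23. MERVL_2A-int_2987 had ratios of 0.02, 0.61 and 0.63, from IP means of 45.9 to 60.1. MERVL_2A-int_963 went the other way, with 3.91 in IP against 14.4 in BO, 5.14 against 28.7 in INPUT and 5.14 against 19.0 in TOTAL.

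LTR loci past 2-fold higher in IP numbered 5 of 32 against BO, 8 of 40 against INPUT and 14 of 41 against TOTAL, and internal loci 4 of 45, 10 of 50 and 12 of 48, where 17.2%, 22.1% and 24.1% of all repeat loci were higher. Past 2-fold lower were 11, 5 and 8 of these LTR loci and 5, 7 and 2 of the internal loci, where 47.7%, 31.2% and 24.3% of all repeat loci were lower. MT2C_Mm_326 had 40.8 in IP against 14.7 in BO, 53.5 against 18.2 in INPUT and 53.3 against 6.87 in TOTAL, and its log2 ratio of 2.79 over TOTAL was the largest among member loci in that table. MT2B1_5132 had log2 ratios of 0.87, 1.93 and 2.04, from IP means of 12.8 to 16.7. Its other means were low, at 6.555 in BO, 3.65 in INPUT and 3.32 in TOTAL. It thus reached a mean of 10 only through IP, and not in the BO table.

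LTR loci with lower means in IP than in BO included some of the largest differences. MT2A_9340 had 80.8 in BO but 13.9 in IP of that table, 16.7 in INPUT and 6.83 in TOTAL, so it stood high in BO alone. MT2B2_676 had 82.9 in BO, 57.4 in INPUT and 45.5 in TOTAL against 28.8, 37.7 and 37.6 in IP. MT2B_3637 had 62.8 in BO against 27.5 in IP, with ratios of -1.17, -0.60 and 0.51 across the 3 tables.

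Loci of the MT2B and MT2B1 names had the lowest ratio in each table, and MERVL_2A-int_963 the second lowest against INPUT, at -2.27. MT2B1_2577 had 48.1 in BO against 2.76 in IP, a log2 ratio of -3.71, and ratios of -2.15 and -1.98 against INPUT and TOTAL. MT2B1_676 had 23.1 in BO against 1.22 in IP. MT2B_13667 had 52.2 in INPUT against 5.29 in IP, a log2 ratio of -3.08, and MT2B1_4967 had 27.3 in TOTAL against 4.78 in IP, a ratio of -2.29.

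**Figure D5:**
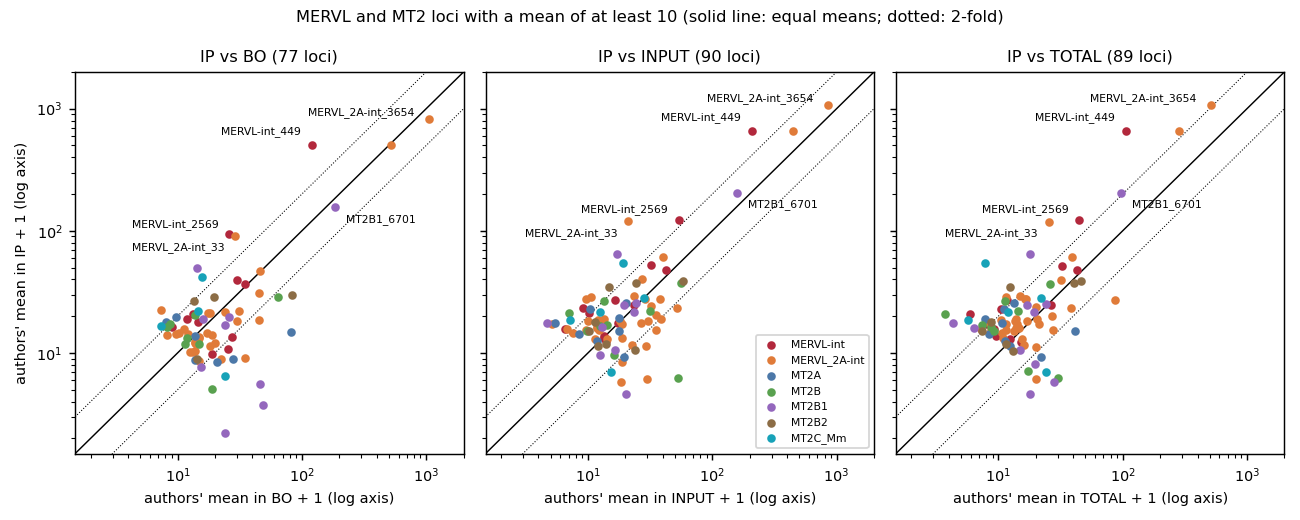
Authors' group mean in IP (y axis) against that in BO, INPUT or TOTAL (x axis) for the member loci with a mean of at least 10, both plus 1 on log axes, coloured by repeat name. The solid line marks equal means and dotted lines 2-fold. MERVL-int_449 lies above the upper 2-fold line in each panel (log2 ratios 2.06, 1.68 and 2.63), while MERVL_2A-int_3654 is below the line of equal means against BO (-0.36) and above it against TOTAL (1.06).

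Counted past 2-fold, 9 of 77 member loci (11.7%) had higher IP means in the BO table and 16 (20.8%) lower ones, where 17.2% of all repeat loci were higher and 47.7% lower. In IP vs INPUT 18 of 90 (20.0%) were higher and 12 (13.3%) lower, against 22.1% and 31.2% of all repeat loci. In IP vs TOTAL 26 of 89 (29.2%) were higher and 10 (11.2%) lower, against 24.1% and 24.3%. The median log2 ratio of the members was -0.20, 0.29 and 0.51. The share of lower loci among the members was below that of all repeat loci in each table, while the share of higher loci was below it in the BO and INPUT tables and above it in the TOTAL table. With log2 ratios centred on the median repeat locus, 29 members (37.7%) were higher and 7 (9.09%) lower than in BO, against 30% and 25.7% of all repeat loci. The 3 tables share the IP libraries. With that in view, 6 loci were past 2-fold higher in all 3, namely MERVL-int_449, MERVL-int_2569, MERVL_2A-int_33, MT2A_4395, MT2B1_2115 and MT2C_Mm_326, and 2 lower, MT2B1_2577 and MT2B_13667. These are 9.23% and 3.08% of the 65 member loci that reached a mean of 10 in each table, against 17% and 9.97% of all such repeat loci.

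Name and locus tables did not divide the member counts alike. In IP, MERVL_2A-int held 26.0% of the member counts in the name table and 37.6% of the summed member means in the locus table, while MT2B held 16.0% and 7.15%. MERVL-int held 16.7% and 19.9%. MT2_Mm held 4.58% in IP and 3.76% in BO of the name table but 2.71% and 2.73% in the locus tables. Its summed means there had log2 ratios of -0.18 for IP vs BO, 0.05 for IP vs INPUT and 0.25 for IP vs TOTAL. On the scale of the BO table its higher level in IP over BO was thus not seen in the sum of its loci. The ratio of that sum lay above -0.90, the median of single repeat loci with a mean of at least 10 in that table. MT2_Mm had 0 loci with such a mean. The sum and that median are unlike measures, so no direction relative to the median is drawn. A value for a name and a sum over its loci are therefore different measures here. Across loci with a mean of at least 10, the correlation of log2 means between IP and the other group was 0.63 (BO, 77 loci), 0.69 (INPUT, 90 loci) and 0.65 (TOTAL, 89 loci), and 0.25, 0.39 and 0.34 without the 3 highest loci, where loci of 1 table share libraries and are not replicates.

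Most of the genes that rise together with MERVL in the 2-cell embryo were near 0 in these samples. Of a list of 38 such genes 27 were in the tables, and the mean of both groups reached 10 in 2 of them for IP vs BO and in 3 for the other comparisons. The 6 Zscan4 genes, zinc finger genes of the 2-cell stage, had means of 0 to 9.04 in every group, with 1.37 in TOTAL for Zscan4d. Dux, the transcription factor that activates MERVL, had 0.650 in TOTAL and 6.84 in IP of that table. It had 1.74 in INPUT against 6.84 in IP, and 3.49 in BO against 5.22 in IP, all below 10. Eif1ad had 947 in TOTAL, where the means of the whole list summed to 1012, and 1000.1 in IP. Its place in the list was not tested here. Spz1 had 30.2 and 4.80. Past 2-fold in IP were 2 of 2 genes higher against BO, 2 of 3 higher against INPUT, and 1 higher and 1 lower of 3 against TOTAL. Over all genes with such means 43.9% were higher and 11.2% lower for IP vs BO, 20.5% and 14.6% for IP vs INPUT, and 20.4% and 26.2% for IP vs TOTAL.

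Genes linked to the control of MERVL had means of 4.06 (Dppa2) to 10931 (Rif1) in TOTAL, with a median of 1019, and are given here beside all genes. Of 30 such genes, 15 of 29 were past 2-fold higher and 4 lower for IP vs BO, where 43.9% and 11.2% of all genes were. For IP vs INPUT the counts were 14 of 29 and 0, against 20.5% and 14.6%, and for IP vs TOTAL 16 of 30 and 0, against 20.4% and 26.2%. Their median log2 ratios were 1.0, 0.81 and 1.28, against 0.81, 0.15 and -0.03 over all genes. Trim28, the corepressor that KRAB zinc finger proteins recruit to retrotransposons, had a mean of 4941 in TOTAL and 13462 in IP. Mga, a subunit of a Polycomb complex, had 7396 and 17037, Smchd1, a chromatin protein of X inactivation, 4497 and 17912, Rif1, a regulator of replication timing, 10931 and 30534, and Zmym2, a zinc finger corepressor, 4291 and 11542. Ncl, the nucleolar protein nucleolin, had 5229 and 6195. Against BO these genes were divided, with log2 ratios of 2.04 for Trim28, 1.62 for Ncl and 0.89 for Smchd1 but -0.52 for Rif1, -0.45 for Mga and -0.39 for Zmym2.

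Markers of the cells in the testis differed between IP and the other groups as well. All 7 spermatocyte markers were past 2-fold higher in IP in each table, with summed means of 102181 in IP against 8529.7 in BO, 133953 against 22068 in INPUT and 133212 against 21641 in TOTAL. All 5 Leydig cell markers were past 2-fold lower in IP than in TOTAL, from 77573 to 15226 in sum, and 4 of 6 Sertoli cell markers were lower, from 75027 to 24520.0. Against BO the Leydig sum was higher in IP (11645 against 5666, 2 of 5 past 2-fold higher and 0 lower) and the Sertoli sum lower (18761 against 23476, 0 higher and 2 lower). Against INPUT both sums were lower, 15260 against 42334 and 24586 against 83693. The 4 markers of macrophages and vessels were all past 2-fold higher against BO, while 3 were lower against INPUT and 1 against TOTAL. Of 4 spermatid markers that reached a mean of 10 in the TOTAL table, 3 were past 2-fold lower in IP, and Spaca1, the 1 that reached it in the other tables, was higher there. Of 5 spermatogonial markers 1 was higher (Stra8) and 2 lower (Kit and Zbtb16) against BO, with a median log2 ratio of 0.39, and 0 were higher and 1 lower against INPUT and against TOTAL. Over all genes 43.9% were past 2-fold higher and 11.2% lower against BO, with a median of 0.81, 20.5% and 14.6% against INPUT, and 20.4% and 26.2% against TOTAL. The part of these cell types in the MERVL-int difference was not tested.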

How the data were processed

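RNA-seq libraries (stranded, rRNA-depleted) of TOTAL, INPUT, BO and IP were analysed from the processed files, with groups and replicate numbers taken from the labels. For the repeat names, the authors aligned reads with STAR 2.6.0c (build mm10), reassigned ambiguously mapped reads with Telescope, collapsed counts to repeat names and normalized them with EBSeq. This deposited signal is a count scaled to 1 upper quartile in all libraries, and 100% of values were whole multiples of 1 step per library (tolerance 0.1), from which reads were recovered. For genes and loci, the authors deposited group means of counts normalized with DESeq2 1.24.0, and this signal is normalized separately in each of 3 tables. Their columns of fold changes and p-values were not used.

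Repeat names with a mean of at least 10 were tested on log2(signal + 1) with limma 3.58.1 (R 4.3.3) across all 12 libraries, Benjamini-Hochberg adjusted. edgeR 4.0.16 and DESeq2 1.42.0 on recovered reads were among the alternatives. Fold changes are on the log2(value + 1) scale. Ratios within libraries were compared by exact permutation tests (scipy 1.17.1). Locus means were compared as log2 ratios with a pseudocount of 1, over loci whose mean of both group means was at least 10, without a test. Named loci were the 10 with the highest mean over the tables, the highest of each name, and the 2 highest and 2 lowest ratios of each table, and named genes the list members with the highest TOTAL means. The 6 loci past 2-fold in all tables, and the Zscan4 genes, Dux and the markers given with values, were chosen after their values were seen. The members and gene lists were chosen with earlier results of these data known. The fitting step was tested on simulated data. INPUT was made from TOTAL, and their libraries of the same number had correlated deviations (0.629, 0.339 and 0.321). Those of different numbers had -0.511 to 0.331, and the cause was not tested. A paired fit left the 1 call of that comparison unchanged. No sequence of a locus was used, and 1 listed gene is not reported here.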

Additional observations from a re-analysis of the deposited data

How the results depend on the processing

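Of the log2 fold changes of the 8 names under the alternatives, 792 kept their direction and their side of the threshold, and 47 changed sign. Of the rest, which kept their direction, 18 came to pass the threshold and 23 ceased to. Some of the 47 crossed it too, all named here under library totals. MT2A, MT2B and MT2B2 came to pass in IP vs TOTAL. MT2B2 ceased to in IP vs BO, as did MT2B and MT2B2 in IP vs INPUT. With libraries scaled to their totals, the median of all names shifts upward, and the cause of each single change was not tested. Under that scaling the IP vs BO values became 0.36 for MT2B1 and 0.20 for MT2B2. The IP vs INPUT values became 0.54 for MERVL_2A-int, 0.39 for MT2A, 0.14 for MT2B, 0.43 for MT2B1, 0.27 for MT2B2 and 0.52 for MT2C_Mm. The IP vs TOTAL values became 1.44 for MT2A, 1.34 for MT2B and 1.42 for MT2B2, and the BO vs INPUT values 0.033 for MERVL_2A-int and 0.0011 for MT2_Mm. Names past 2-fold with an adjusted p under 0.05 then numbered 1 for IP vs BO, 1 for IP vs INPUT, 8 for IP vs TOTAL and 8 for INPUT vs TOTAL. The median of all names was then at 0.36, 0.47, 1.49 and 1.03, and the share of all names past 2-fold is not given here. Names higher numbered 1, 1, 8 and 8 in these comparisons, where 11.9%, 12%, 90.7% and 78.2% of all 1180 names were higher, and names lower 0 for IP vs BO, IP vs INPUT and BO vs INPUT, where 1.44%, 1.53% and 1.78% of all names were lower.

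With median-ratio scaling the IP vs INPUT values became 0.072 for MERVL_2A-int and 0.058 for MT2C_Mm, and the BO vs INPUT values -0.027 for MERVL-int, -0.016 for MT2B1 and -0.023 for MT2B2. edgeR on recovered reads gave 0.049 and 0.028 for the first pair and -0.063, -0.052 and -0.057 for the other set, and DESeq2 0.077 and 0.054, and -0.030, -0.0199 and -0.0195. Median-ratio scaling, edgeR and DESeq2 each left 0 names lower in IP vs BO and 1 lower in IP vs INPUT, and put 1 past 2-fold in IP vs TOTAL. Over all names 183, 175 and 184 were then lower in IP vs BO, and 151, 166 and 165 in IP vs INPUT. In INPUT vs TOTAL, 0 names were higher with median-ratio scaling and with edgeR, where 4 and 5 of all names were. A minimum mean of 100 made 1 name lower in IP vs TOTAL, where 139 of all names tested were lower. Over all 1180 names, limma called 133 higher and 274 lower for IP vs BO where edgeR called 181 and 175, and 10 and 10 for INPUT vs TOTAL where DESeq2 called 31 and 41.

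With 1 library left out at a time, the log2 fold change ranged from -0.063 to 0.056 for MERVL_2A-int, from -0.023 to 0.035 for MT2A and from -0.064 to 0.054 for MT2B in IP vs BO, and from -0.064 to 0.022 for MERVL_2A-int and from -0.063 to 0.042 for MT2C_Mm in IP vs INPUT. In BO vs INPUT it ranged from -0.019 to 0.069 for MERVL-int, from -0.065 to 0.054 for MERVL_2A-int, from -0.0015 to 0.063 for MT2B1, from -0.034 to 0.075 for MT2B2 and from -0.080 to 0.012 for MT2_Mm. Between 1 and 2 names were higher in IP vs INPUT, and between 0 and 1 in INPUT vs TOTAL, where 86 to 147 and 1 to 15 of all names were. Lower names numbered 1 to 2 in IP vs INPUT, 0 to 1 in IP vs TOTAL and 1 to 2 in BO vs INPUT, and those past 2-fold in IP vs TOTAL 0 to 1. Over all names 144 to 215, 100 to 157 and 102 to 154 were lower in the first 3 of these. IP vs BO had 3 higher and 1 lower throughout, against 106 to 142 and 213 to 291 of all names.

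A fit with the replicate number as a replicate block made 1 name lower in IP vs TOTAL, MT2B, in place of 0. It made 3 lower in BO vs INPUT in place of 2, with MT2A as the name gained. Over all names 180 and 148 were then lower in these comparisons. No other number of member names past the adjusted p changed. In INPUT vs TOTAL the members with an unadjusted p under 0.05 went from 4 to 5. Over all names that comparison then had 35 higher and 32 lower, in place of 10 and 10. Deviations of same-numbered libraries had correlations of -0.142 to 0.122 for IP with BO, INPUT or TOTAL, 0.295, 0.0615 and 0.558 for BO with INPUT, and 0.157, -0.128 and 0.239 for BO with TOTAL. In none of these pairs of groups were all 3 above 0.1, so no pairing was assumed, although IP and BO were taken from the INPUT pool.

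For the locus counts, a minimum mean of 5 gave 22 higher and 48 lower of 170 for IP vs BO, 34 and 27 of 196 for IP vs INPUT, and 46 and 16 of 176 for IP vs TOTAL, where the shares over all repeat loci were 15.2% and 46%, 20.2% and 32%, and 21% and 23.2%. A minimum of 50 gave 3 and 1 of 7, 3 and 0 of 6, and 6 and 1 of 7, against 20.6% and 52.2%, 25.2% and 26.4%, and 29.9% and 23.5%. A pseudocount of 10 gave 5 and 8 of 77, 5 and 3 of 90, and 12 and 5 of 89, against 10.8% and 33.2%, 13% and 17.5%, and 14.6% and 13.8%. A fold of 4 gave 1 and 4, 1 and 3, and 5 and 2 of the same loci, against 6.48% and 23.5%, 7.27% and 10.5%, and 8.68% and 9.15%. Centred on the median repeat locus, the numbers were 29 and 7 for IP vs BO, against 30% and 25.7% of all repeat loci. For IP vs INPUT they were 22 and 5, against 26.7% and 25.1%. For IP vs TOTAL they were 26 and 10, against 23.8% and 24.5%. Group means without library values limit the loci to description.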
